A study of Mus musculus with 12 samples.

Results

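Nr5a2, Nr0b1, Esrrb, Klf2, Klf3, Klf4 and Klf5 were 7 of the 22180 named genes measured on the arrays, chosen by symbol as the orphan nuclear receptors (3 genes) and Krüppel-like factors (4 genes) best known from the pluripotent state. Each had 1 transcript cluster of its own in the platform annotation, and none of these clusters was shared with another gene. The cells were E14, a mouse embryonic stem (ES) cell line, transduced with a control short hairpin RNA (shCT) or with a hairpin against LOXL2 (shLOXL2), an enzyme of the lysyl oxidase family. Both lines of cells were profiled without RA at day 0 and with RA at day 1, with 3 arrays in each of the 4 groups. RA is read here as retinoic acid, an inducer of differentiation, and no dose is stated in the labels. Every group carried a hairpin, so no untransduced cells enter any comparison. There was no group at day 1 without RA, so the effects of RA and of the added day in culture cannot be told apart. The question was which of these 7 genes lost signal by day 1, by how much and in which order, and whether the hairpin against LOXL2 altered that.

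Nr5a2, Nr0b1 and Esrrb encode orphan nuclear receptors, proteins of the hormone receptor superfamily for which no classical hormone is established. NR5A2 and ESRRB bind DNA at a core motif of the receptor family and activate genes of the naive pluripotent state, including Pou5f1 and Nanog, whereas NR0B1 (DAX1) lacks the usual DNA-binding domain and acts by binding other factors. The Krüppel-like factors bind GC boxes and CACCC boxes through zinc fingers at their C terminus. KLF2, KLF4 and KLF5 overlap in maintaining ES cells and sit downstream of the ERK, LIF-STAT3 and other self-renewal inputs, while KLF3 is mainly known as a repressor that recruits CtBP proteins.

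The sequence just before the transcription start was examined because several of the 7 genes moved together and because these proteins can act on one another's genes. RefSeq windows on build GRCm38.p6 were matched for 6 of the 7 genes, and Klf5 had none. There were 8 windows in all, since Nr5a2 and Esrrb have an alternative start. The following motifs were searched on both strands in the 250 bases before each start: the receptor core AGGTCA, its extended form AAGGTCA, which contains it, the GC box GGGCGG and the CACCC box CCACCC. A direct repeat of the receptor core, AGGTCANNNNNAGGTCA, the arrangement known for retinoic acid receptors, was searched as well. The windows below show the contrast between 2 receptor genes and 2 Klf genes; each is written 5′ to 3′ on the strand of the gene, and capitals mark the motifs found. Nr5a2 lies on the minus strand at chr1:136960449-136960698, Nr0b1 on the plus strand at chrX:86191525-86191774, Klf2 on the plus strand at chr8:72318812-72319061 and Klf3 on the plus strand at chr5:64803271-64803520.
Nr5a2: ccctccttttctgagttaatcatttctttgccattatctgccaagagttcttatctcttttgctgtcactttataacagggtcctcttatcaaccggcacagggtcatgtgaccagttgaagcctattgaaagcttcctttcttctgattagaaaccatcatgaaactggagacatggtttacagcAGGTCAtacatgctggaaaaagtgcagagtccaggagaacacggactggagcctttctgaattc
Nr0b1: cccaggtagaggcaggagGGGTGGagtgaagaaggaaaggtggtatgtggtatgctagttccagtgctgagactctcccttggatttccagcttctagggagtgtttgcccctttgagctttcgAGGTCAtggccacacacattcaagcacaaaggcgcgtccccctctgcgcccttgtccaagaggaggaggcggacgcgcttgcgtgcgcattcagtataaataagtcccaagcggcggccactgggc
Klf2: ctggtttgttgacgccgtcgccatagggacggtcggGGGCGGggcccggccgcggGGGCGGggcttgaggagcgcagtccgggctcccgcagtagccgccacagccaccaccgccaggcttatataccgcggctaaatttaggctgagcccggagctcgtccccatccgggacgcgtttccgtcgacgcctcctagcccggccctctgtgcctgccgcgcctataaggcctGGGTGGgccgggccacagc
Klf3: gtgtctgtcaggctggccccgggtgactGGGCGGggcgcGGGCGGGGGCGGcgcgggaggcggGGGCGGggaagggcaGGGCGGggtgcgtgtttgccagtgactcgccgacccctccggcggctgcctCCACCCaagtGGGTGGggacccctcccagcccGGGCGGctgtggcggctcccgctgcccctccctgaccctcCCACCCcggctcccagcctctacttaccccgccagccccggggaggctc

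The receptor core was found in 2 of the 8 windows, those of Nr5a2 and Nr0b1 printed above. In Nr5a2 it lay 64 to 59 bases before the start and in Nr0b1 126 to 121 bases before it. Of all 32851 mouse windows of this length, 14.02% held AGGTCA. Neither AAGGTCA, found in 4.079% of all windows, nor the direct repeat, found in 0.009132%, was in any of the 8 windows. Of the 6 genes examined, GC boxes were found in the windows of 3 only, all of them Klf genes. Klf3 had 6, Klf4 (minus strand, chr4:55532476-55532725) had 4 and Klf2 had 2, against 32.74% of all windows with at least 1. These 3 windows were also the richest in G and C, at 71.2% to 78.4%, against a median of 52.4% over all windows. The windows of the receptor genes ranged from 43.2% (the Nr5a2 window shown) to 60.8% (1 of the Esrrb windows). CCACCC was found in 6 of the 8 windows, against 28.08% of all windows. These matches describe the letters of the windows and no binding was measured.

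The arrays gave a log2 signal per transcript cluster, normalized between arrays before deposit. Array medians over all clusters lay between 4.58 and 4.68, and the 7 genes were measured well above them, with 6.61 as their lowest value on any array. The 2 transcript clusters annotated to Loxl2, both shared with a predicted gene, were lower in shLOXL2 on average of both RA states (exact permutation p = 0.005 and 0.03, two-sided). Without RA the first had a mean of 5.50 ± 0.295 (SD, n = 3) with the control hairpin against 4.94 ± 0.140 with the other, and with RA 6.09 ± 0.368 against 5.18 ± 0.105. The second had 4.92 ± 0.344 against 4.77 ± 0.232 without RA, a difference within the SDs, and 5.88 ± 0.349 against 4.796 ± 0.228 with RA. The shLOXL2 means, at 4.77 to 5.18, were low and near the array medians, so no exact share of Loxl2 left can be given. Within groups, 49.4% of the variance lay on 1 axis, and 4 arrays stood high on it: shCT day 0 replicate 3, shCT day 1 replicate 3, shLOXL2 day 0 replicate 1 and shLOXL2 day 1 replicate 1. Their scores were 0.270 to 0.436, and shCT day 0 replicate 1 lay further out on the other side, at -0.504. Which side of the axis counts as high is arbitrary. No label states that replicate arrays stem from separate cultures; the p-values therefore measure only how far these arrays scatter, and that scatter may be technical. The number of arrays limits the precision. Of 10 ES cell markers, 9 had means of 7.53 to 11.1, and Dppa5a was near the median of the named genes at 5.42.

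Of the 7 genes, 5 fell by day 1 on average of both constructs, and their losses differed in size. Nr5a2 and Nr0b1 lost the most signal, with 40.6% and 43.4% of the day 0 level left. Klf2 and Esrrb followed with 58.9% and 63.6% left, and Klf5 kept 76.3%. Klf4 (88.0%) and Klf3 (107%) did not pass the test. In limma's fit across all genes, 4.8% of the 22180 genes fell past an adjusted p of 0.05 in this comparison. The median change was -0.65 log2 units over the 7 genes and -0.0068 over all genes.

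**Figure D1:**
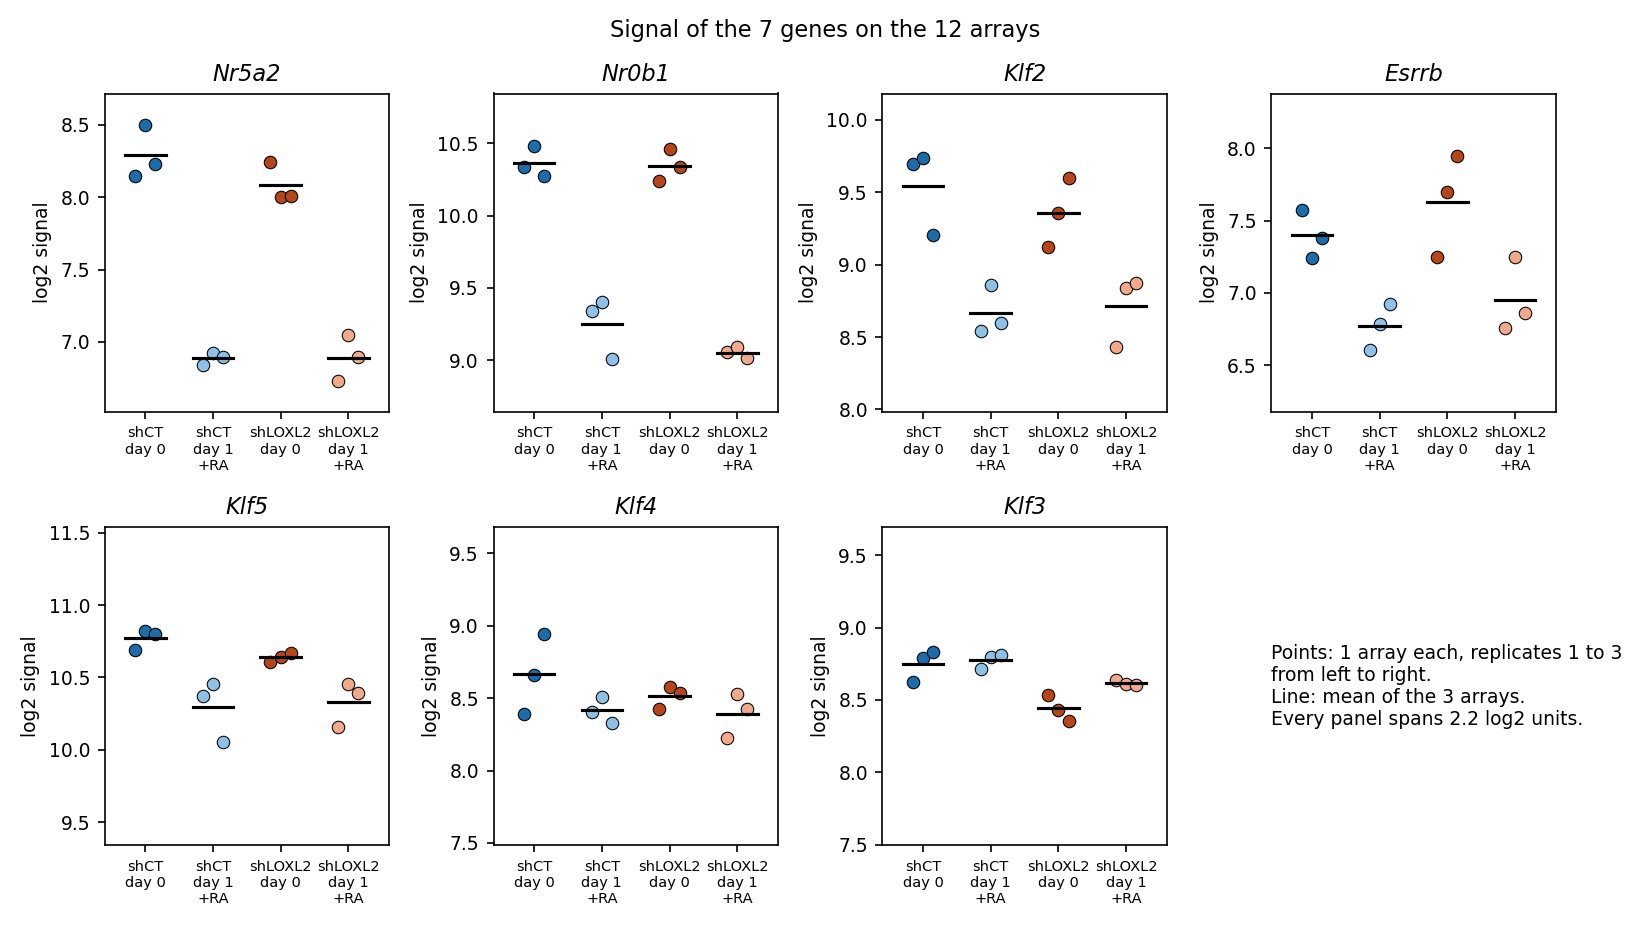
Log2 signal of each gene on each of the 12 arrays (points, replicates 1 to 3 from left to right) with the group mean (line); groups are shCT and shLOXL2 at day 0 without RA and at day 1 with RA, and every panel spans the same number of log2 units. Day 1 arrays lie below all day 0 arrays of their construct for Nr5a2, Nr0b1, Klf2, Esrrb and Klf5, and overlap them for Klf4.

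Nr5a2, the receptor also known as LRH-1, read 8.15, 8.50 and 8.23 on the shCT arrays at day 0 and 6.84, 6.92 and 6.90 at day 1. In shLOXL2 it read 8.24, 8.002 and 8.01 at day 0 and 6.73, 7.05 and 6.89 at day 1. The groups did not overlap in either construct: the lowest day 0 array was 1.23 log2 units above the highest day 1 array in shCT and 0.95 above it in shLOXL2. The change was -1.41 ± 0.134 (SE, n = 3 arrays per group, adjusted p = 3.61e-05) in shCT and -1.19 in shLOXL2 (adjusted p = 0.000165). On average of both constructs it was -1.30 ± 0.0946, with an adjusted p of 1.23e-06.

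Nr0b1, the receptor without a DNA-binding domain, read 10.34, 10.48 and 10.27 in shCT at day 0 and 9.34, 9.40 and 9.01 at day 1. The shLOXL2 arrays read 10.24, 10.46 and 10.34 at day 0 and 9.05, 9.09 and 9.02 at day 1. Here too every day 1 array was below every day 0 array, with gaps of 0.87 in shCT and 1.15 in shLOXL2. The change was -1.11 ± 0.131 in shCT (adjusted p = 0.000226), -1.29 in shLOXL2 (adjusted p = 7.6e-05) and -1.20 ± 0.0925 on average (adjusted p = 1.87e-06). In this fit, Nr5a2 and Nr0b1 were the only ones of the 7 past the threshold in each construct taken alone. Of all genes, 1.1% fell past it in both. Under other settings Esrrb and Klf2 passed in each construct too. These were centring on array medians, array weights, the axis within groups as a covariate, and blocks of construct and replicate number.

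Esrrb, the estrogen-related receptor beta, read 7.57, 7.24 and 7.38 in shCT at day 0 and 6.61, 6.78 and 6.92 at day 1. In shLOXL2 it read 7.25, 7.69 and 7.95 at day 0 and 6.76, 7.25 and 6.86 at day 1. The groups did not overlap, but in shLOXL2 the separation was 0.0053 log2 units, set by replicate 1 at day 0 and replicate 2 at day 1. The change was -0.63 ± 0.185 in shCT and -0.68 in shLOXL2, neither past the threshold (adjusted p = 0.0811 and 0.0674), and -0.65 ± 0.131 on average, which was (adjusted p = 0.00546). Without shLOXL2 day 0 replicate 1 the change in each construct passed the threshold, at -0.63 in shCT (adjusted p = 0.0400) and -0.87 in shLOXL2 (adjusted p = 0.0175). Without shLOXL2 day 1 replicate 2 it also passed in shLOXL2, at -0.82 (adjusted p = 0.0484). With any other single array left out, the change in neither construct passed. The adjusted p then reached up to 0.257 in shCT and 0.278 in shLOXL2.

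Among the Krüppel-like factors Klf2 showed the largest fall. It read 9.69, 9.74 and 9.21 in shCT at day 0 against 8.54, 8.86 and 8.60 at day 1, and 9.12, 9.36 and 9.60 in shLOXL2 at day 0 against 8.43, 8.84 and 8.87 at day 1. Day 1 arrays were lower than all day 0 arrays in both constructs, by at least 0.35 in shCT and 0.25 in shLOXL2. The change was -0.88 ± 0.183 in shCT (adjusted p = 0.0142), -0.65 in shLOXL2 (adjusted p = 0.0785) and -0.76 ± 0.129 on average (adjusted p = 0.00165). The call in shCT was lost without day 0 replicate 2 (-0.78, adjusted p = 0.0794), day 1 replicate 1 (-0.82, adjusted p = 0.0708) or day 1 replicate 3 (-0.85, adjusted p = 0.059). In shLOXL2, leaving out shCT day 0 replicate 3, which enters only through the shared spread, brought the adjusted p to 0.0460. Without other single arrays it stayed above the threshold and reached up to 0.295.

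Klf5 read 10.69, 10.82 and 10.80 in shCT at day 0 and 10.37, 10.46 and 10.06 at day 1. Its shLOXL2 arrays read 10.61, 10.64 and 10.67 at day 0 and 10.15, 10.45 and 10.39 at day 1. Every day 1 array was below every day 0 array in both constructs, by 0.23 or more in shCT and 0.15 or more in shLOXL2. The change of -0.48 ± 0.132 in shCT and of -0.31 in shLOXL2 did not pass the threshold (adjusted p = 0.0639 and 0.304), and the average of -0.39 ± 0.0937 did (adjusted p = 0.0159). The change in shCT passed under 7 of 25 alternatives, among them centring on array medians (adjusted p = 0.0200) and array weights (adjusted p = 0.00318). That in shLOXL2 passed under none. Without the 4 arrays high on the axis within groups the average was -0.29 and no longer passed (adjusted p = 0.0807).

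Klf4, one of the reprogramming factors, overlapped between days in both constructs. It read 8.39, 8.66 and 8.94 in shCT at day 0 and 8.41, 8.51 and 8.33 at day 1, then 8.43, 8.58 and 8.54 in shLOXL2 at day 0 and 8.22, 8.53 and 8.42 at day 1. The change was -0.25 ± 0.146 in shCT, -0.12 in shLOXL2 and -0.18 ± 0.103 on average (adjusted p = 0.447, 0.798 and 0.333). The 95% confidence interval of the average reached from -0.41 to 0.04.

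Klf3 was the only one of the 7 genes whose average change was above 0. In shCT it read 8.62, 8.79 and 8.83 at day 0 and 8.71, 8.80 and 8.81 at day 1, with overlapping groups. In shLOXL2 it read 8.53, 8.43 and 8.36 at day 0 and 8.64, 8.61 and 8.60 at day 1, so every day 1 array was above every day 0 array, as was true of 10.3% of all genes. The change was 0.026 ± 0.111 in shCT, 0.18 in shLOXL2 and 0.10 ± 0.0783 on average, none past the threshold (adjusted p = 0.945, 0.531 and 0.512). In shCT its sign turned when arrays were centred on their medians (-0.077), with array weights (-0.014) and without day 0 replicate 1 (-0.036).

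**Figure D2:**
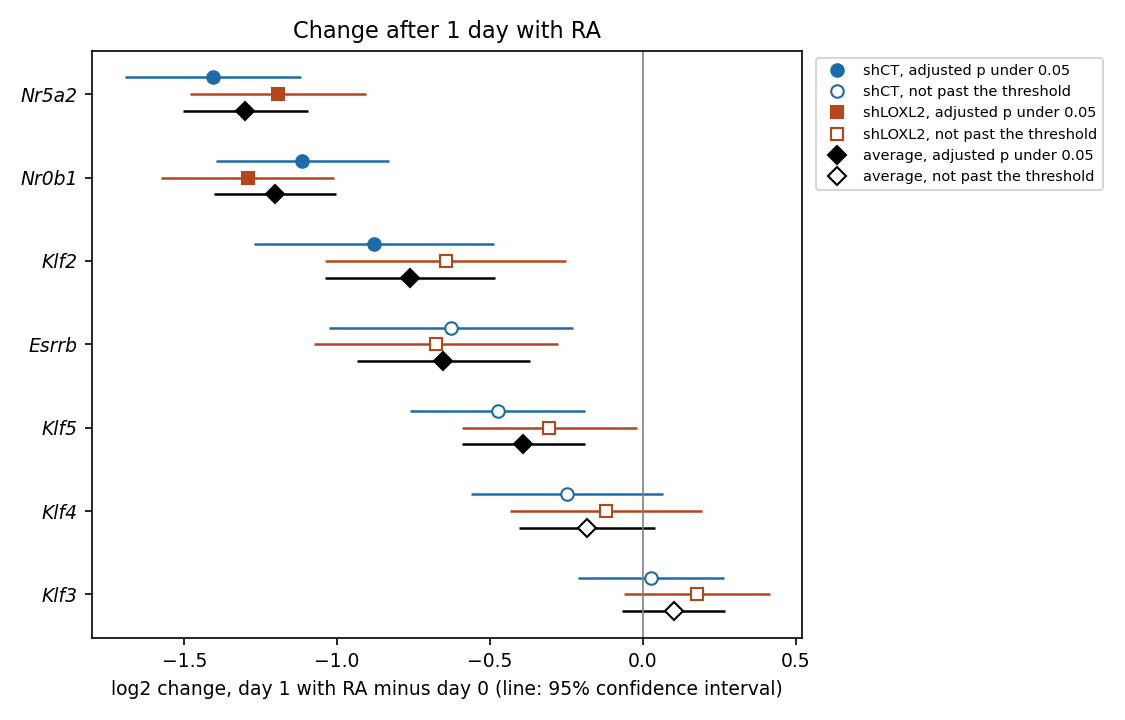
Log2 change from day 0 to day 1 with RA for each gene in shCT (circles), in shLOXL2 (squares) and on average (diamonds), with 95% confidence intervals; filled symbols passed an adjusted p of 0.05 in limma's fit over all genes. The genes are ordered by the average change, from Nr5a2 at -1.30 to Klf3 at 0.10.

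By construct, 3 of the 7 genes (Nr5a2, Nr0b1 and Klf2) fell in shCT, where 2.09% of all genes fell. In shLOXL2, 2 of the 7 (Nr5a2 and Nr0b1) fell, against 1.41% of all genes. For 5 of the 7, every day 1 array was below every day 0 array in both constructs, which held for 4.33% of all genes (10.5% in shCT alone and 9.32% in shLOXL2 alone). The falls cannot be divided into fewer cells with the transcript and less transcript per cell in these bulk samples.

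The size of the loss in log2 signal was then compared between the 7 genes. Their group means lay at different levels, from 6.77 (Esrrb, shCT day 1) to 10.8 (Klf5, shCT day 0). Whether an equal change in signal means an equal loss of transcript across these clusters was not tested. For each pair the log2 difference of both genes was taken within each array, and its change with RA was tested by an exact permutation test, two-sided, over the 400 relabellings of days within constructs; the smallest p this allows is 0.005. After Benjamini-Hochberg adjustment over the 21 pairs, 18 differed. Each of Nr5a2 and Nr0b1 differed from all 5 other genes, while the difference between both was -0.10 ± 0.108 and did not pass (adjusted exact p = 0.425). The next step, from Nr0b1 to Klf2, was -0.44 ± 0.129 (adjusted exact p = 0.0233).

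**Figure D3:**
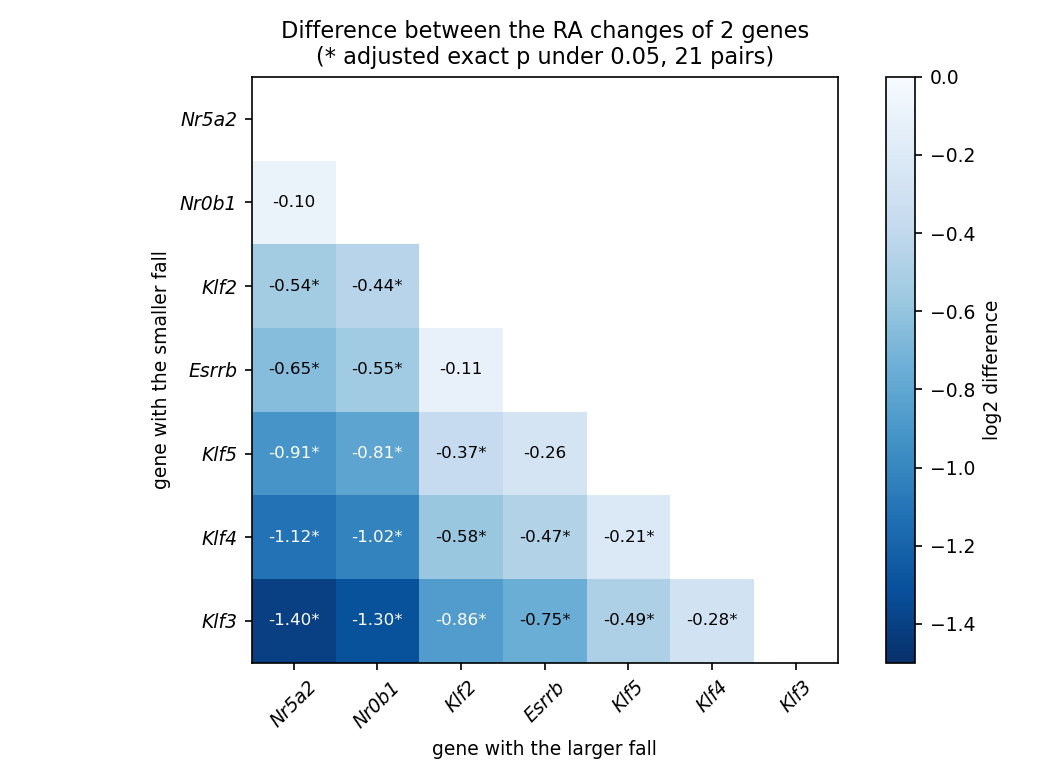
Difference between the RA changes of each pair of genes, as the log2 change of the gene with the larger fall (columns) minus that of the gene with the smaller fall (rows), averaged over both constructs; an asterisk marks an adjusted exact p under 0.05 among the 21 pairs. The 3 pairs without an asterisk are Nr5a2 with Nr0b1, Klf2 with Esrrb, and Esrrb with Klf5.

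In the middle of the order the steps were smaller. Klf2 and Esrrb differed by -0.11 ± 0.135 (adjusted exact p = 0.455), and Esrrb and Klf5 by -0.26 ± 0.159 (adjusted exact p = 0.133), while Klf2 fell by more than Klf5, with a difference of -0.37 ± 0.127 (adjusted exact p = 0.0233). At the lower end, Klf5 differed from Klf4 by -0.21 ± 0.0777 (adjusted exact p = 0.0233) and Klf4 from Klf3 by -0.28 ± 0.0894 (adjusted exact p = 0.0162). Neither Klf4 nor Klf3 itself changed past the threshold, so the step between them is a difference between changes and not a fall of Klf4.

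Several of these calls were lost when a single array was left out, in part with a difference as large as before. The step from Klf5 to Klf4 was lost without shCT day 0 replicate 1 (-0.16, adjusted exact p = 0.0642) and without shCT day 1 replicate 1, 2 or 3 (-0.23, -0.22 and -0.17, adjusted exact p = 0.0525, 0.0525 and 0.0718). The step from Nr0b1 to Klf2 was lost without shCT day 1 replicate 3 (-0.40, adjusted exact p = 0.0525), and without the same array Esrrb differed from Klf5 (-0.36, adjusted exact p = 0.0432). Without shCT day 1 replicate 1 the differences of Klf2 from Klf4 (-0.55), of Klf2 from Klf5 (-0.32) and of Esrrb from Klf4 (-0.43) were also lost, each at an adjusted exact p of 0.0525. The latter 2 were lost as well without shCT day 1 replicate 2 (-0.38 and -0.45, again at 0.0525). No other pair lost its call when a single array was left out.

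Knockdown of LOXL2 moved none of the 7 genes past the threshold of the fit over all genes. On average of both RA states, 0.0541% of all genes were called in either direction. The differences, shLOXL2 minus shCT, were 0.21 for Esrrb, -0.23 for Klf3, -0.11 for Nr0b1, -0.10 for Nr5a2, -0.087 for Klf4, -0.070 for Klf2 and -0.047 for Klf5, with adjusted p-values from 0.502 (Klf3) to 0.977 (Klf5). Of these values, that of Klf4 turned to 0.025 without the 4 arrays high on the axis, and that of Klf2 to 0.0016 without shLOXL2 day 1 replicate 1.

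Klf3 was the gene with the clearest separation between constructs. Within each RA state it was lower on every shLOXL2 array than on every shCT array. Without RA the mean was 8.44 ± 0.0886 against 8.75 ± 0.109 (SD, n = 3), and with RA it was 8.62 ± 0.0178 against 8.77 ± 0.0535. Klf5 was also lower on every shLOXL2 array than on every shCT array without RA, but not with RA. Among all genes 4.04% were lower on every shLOXL2 array without RA, 5.88% with RA and 0.681% in both RA states. The difference of -0.23 ± 0.0783 had an exact permutation p of 0.005, two-sided, the smallest that the 400 relabellings of constructs within RA states can give, and a limma adjusted p of 0.502 over all 22180 genes. With array weights, which called 1002 of the 22180 genes against 12 without them, the adjusted p was 0.0308. Over the other alternatives it stayed above 0.05. The exact p of the other 6 genes ranged from 0.175 (Esrrb) to 0.615 (Klf2).

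**Figure D4:**
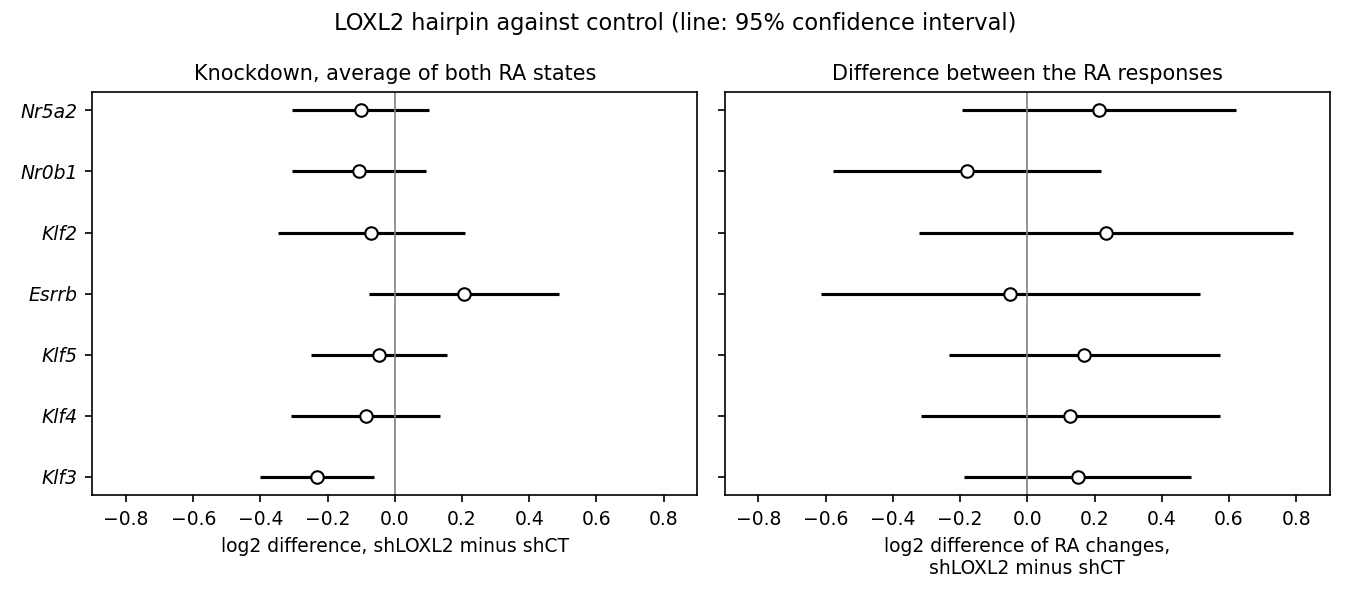
Left, log2 difference between shLOXL2 and shCT for each gene, averaged over both RA states; right, difference between the RA changes of the constructs, shLOXL2 minus shCT; lines are 95% confidence intervals and no value passed an adjusted p of 0.05. On the left the interval of Klf3, around -0.23, lies below 0; on the right every interval includes 0.

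The difference between the RA changes of the constructs was tested as an interaction. It was positive, which for a falling gene is a smaller loss in shLOXL2, at 0.21 for Nr5a2 (95% confidence interval -0.20 to 0.62), 0.23 for Klf2 (-0.32 to 0.79) and 0.17 for Klf5 (-0.23 to 0.57). Klf3 (0.15, -0.19 to 0.49) and Klf4 (0.13, -0.32 to 0.57) also had positive values, that of Klf4 turning to -0.010 without shCT day 0 replicate 3 and to -0.012 without the 4 arrays high on the axis. It was negative for Nr0b1 at -0.18 (-0.58 to 0.22) and for Esrrb at -0.050 (-0.61 to 0.51), and the sign for Esrrb depended on single arrays. In limma's fit 0% of genes (0 of 22180) passed an adjusted p of 0.05, and 652, or 2.94%, had an unadjusted p under it.

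The genes that work with the 7 in ES cells were taken from lists of the naive network, both protein families, their coregulators and upstream pathways. Of 13 naive network partners measured, 7 fell and 2 rose, with a median of -0.44 against -0.0068 over all genes; 4.8% of all genes fell and 5.52% rose. Tcl1, a coactivator of AKT, had the largest fall of the list at -1.44, and Pou5f1, the gene of OCT4, fell by 0.56. Nanog had a change of 0.083 (adjusted p = 0.827), whose sign turned without shCT day 0 replicate 1 (-0.019) or without shLOXL2 day 1 replicate 1 (-0.018). Tbx3, a T-box factor of the naive state, rose by 0.92 and Pecam1, an adhesion molecule of ES cells, by 0.90.

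**Figure D5:**
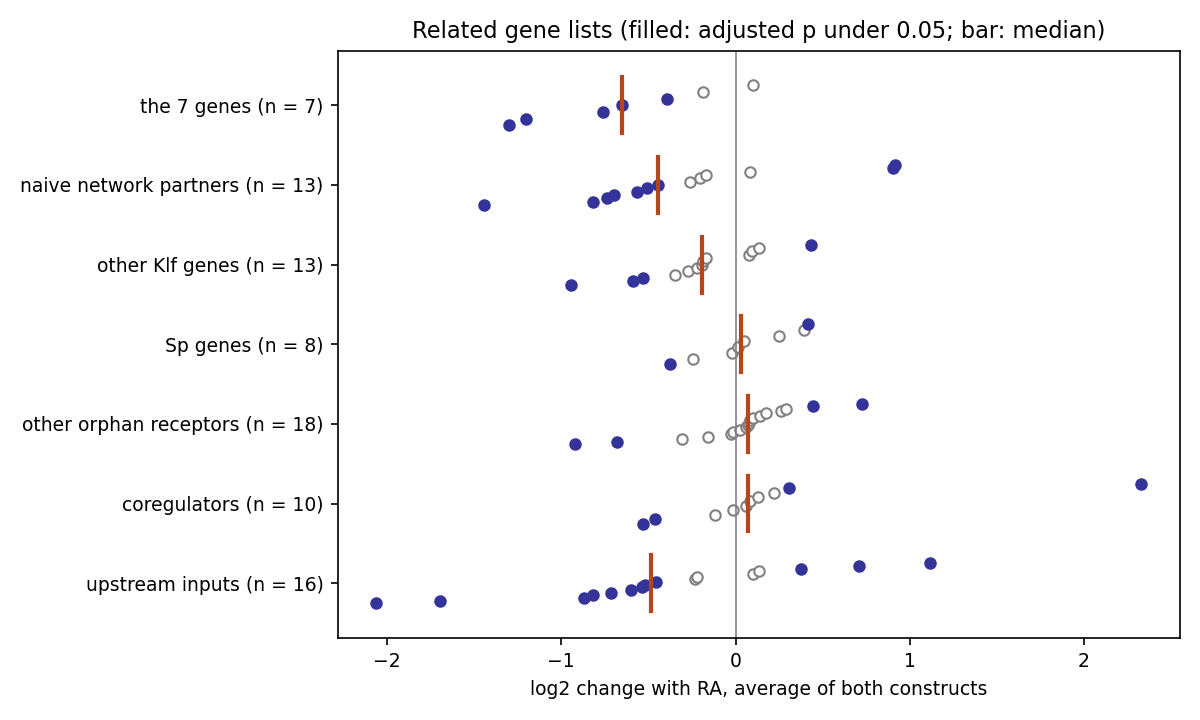
Log2 change with RA, averaged over both constructs, for the 7 genes and for each measured gene of 6 related lists; filled points passed an adjusted p of 0.05 and the bar is the median of the list. The 7 genes have a median of -0.65, the naive network partners of -0.44 and the upstream inputs of -0.49, while the bars of the Sp genes, other orphan receptors and coregulators lie within 0.1 of 0.

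Relatives of the 7 genes were read against the same 4.8% of all genes that fell and 5.52% that rose. Of 13 other Klf genes, 3 fell and 1 rose (median -0.19). Those that fell were Klf15 (-0.94), Klf8 (-0.59) and Klf16 (-0.53), and Klf6 rose (0.43). Klf6 did not pass when arrays were centred on their medians (0.35, adjusted p = 0.0620). It was also lost without shCT day 1 replicate 1, shLOXL2 day 0 replicate 2 or 3, or shLOXL2 day 1 replicate 1 (0.38 to 0.42, adjusted p of at most 0.0587).

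Of 8 Sp genes, whose zinc fingers resemble those of the Klf factors, Sp8 rose by 0.41 and Sp5, a Wnt target, fell by 0.38, while Sp1 had -0.25 (adjusted p = 0.206). The call of Sp5 was lost on leaving out any of 7 single arrays (adjusted p of at most 0.0843): shCT day 0 replicate 2, shCT day 1 replicates 1 and 3, shLOXL2 day 0 replicates 1 and 2, and shLOXL2 day 1 replicates 1 and 2. Without the 4 arrays high on the axis neither Sp5 (-0.29, adjusted p = 0.169) nor Sp8 (0.38, adjusted p = 0.0542) passed. Of 18 other orphan receptors, 2 rose and 2 fell. Nr6a1, the germ cell nuclear factor, a repressor of Pou5f1, rose by 0.73, and Nr2c1, a testicular receptor, by 0.45. Nr1d1, the clock repressor REV-ERB alpha, fell by 0.92, and Nr4a1, an immediate early gene, fell by 0.68.

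The 10 measured coregulators held the gene with the largest rise in these lists. Nrip1, which encodes the nuclear receptor corepressor RIP140 and is a known retinoic acid target, rose by 2.33. Ctbp2, a CtBP corepressor of the kind KLF3 recruits, fell by 0.53, Ppargc1b fell by 0.46, Crebbp rose by 0.31, and Ncoa3, a coactivator of ESRRB, had a change of -0.013 whose sign turned with a further quantile normalization (0.024). The calls of Ppargc1b and Crebbp were lost on leaving out 8 and 11 of the 12 arrays, one at a time. Ppargc1b then passed only without shCT day 0 replicate 3, shCT day 1 replicate 2, shLOXL2 day 0 replicate 1 or shLOXL2 day 1 replicate 3, and Crebbp only without shLOXL2 day 0 replicate 1. Their adjusted p-values ranged from 0.00836 to 0.0706 and from 0.0326 to 0.114. Without the 4 arrays high on the axis Ctbp2 was lost as well (-0.38, adjusted p = 0.0648).

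Of 16 genes of the LIF-STAT3, Wnt and ERK inputs, 9 fell and 3 rose, with a median of -0.49. Lef1, a Wnt effector, fell by 2.06, and Egr1, an immediate early target of ERK, fell by 1.70. Of the other Wnt and ERK genes, Spry4 (-0.87) and Etv5 (-0.71) also fell, while Dusp6 rose by 0.71 (adjusted p = 0.00204). Axin2 (-0.22), Ctnnb1 (0.14) and Etv4 (-0.23) were not called (adjusted p = 0.138, 0.340 and 0.275). Of the LIF-STAT3 genes, Stat3 fell by 0.46, as did the receptor genes Lifr (-0.82) and Il6st (-0.52) and the STAT3 targets Socs3 (-0.54) and Pim3 (-0.60), while the STAT3 target Pim1 rose by 1.12 and the kinase gene Jak1 rose by 0.38. Tcf7l1, the repressor of Esrrb, Klf2 and other naive genes, had 0.10 (adjusted p = 0.682). Klf6, Nr2c1, Crebbp, Lifr, Il6st, Socs3, Pim3, Jak1, Spry4, Etv5, Dusp6, Axin2, Ctnnb1 and Etv4 were named after their values were seen.

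Cell type markers also moved with RA, in a comparison in which 5.52% of all genes rose and 4.8% fell. These lists overlap with those above. The ES cell markers share Pou5f1, Sox2, Nanog, Zfp42 and Sall4 with the naive network partners, and the primed epiblast markers share Lef1 with the upstream inputs. Of the 10 ES cell markers 4 fell and 1 rose (3 and 5 fell after quantile normalization and centring), and the log2 of their summed signal went from 13.2 to 13.5 at day 0 to 13.1 to 13.2 at day 1 in shCT and from 13.4 to 13.6 to 13.19 to 13.20 in shLOXL2. Of 8 primitive endoderm markers 3 rose (Gata6, Pdgfra and Foxq1), and the log2 of their summed signal went from 8.78 to 9.92 across shCT arrays at day 0 to 9.47 to 10.3 at day 1, and from 8.87 to 8.98 to 9.78 to 10.02 in shLOXL2. Of 6 neural progenitor markers 3 rose (Sox1, Pax6 and Msi1; 2 after quantile normalization or centring), and their summed signal went from 7.88 to 7.98 at day 0 to 8.42 to 8.68 at day 1 in shCT and from 7.77 to 8.01 to 8.19 to 8.41 in shLOXL2. Of 7 trophectoderm markers 1 rose (Cdx2), with sums of 7.35 to 7.67 over all day 0 arrays and 7.62 to 8.004 over all day 1 arrays. Of 8 fibroblast markers 1 rose (Pdgfrb), with sums of 7.56 to 7.85 and 7.77 to 8.19. Of 5 primed epiblast markers 4 fell, with sums of 10.3 to 10.7 and 8.86 to 9.43. Of the 8 fibroblast markers, Col1a2, Col3a1, Postn, Dcn and Lum had means of 2.82 to 4.74, below the median of the named genes on every array (lowest 4.997), and Col1a1 (5.21), Thy1 (5.33) and Pdgfrb (5.99) lay above the highest such median (5.13). Of the 7 trophectoderm markers, Cdx2 (4.70), Eomes, Elf5, Krt7 and Tfap2a had means of 3.90 to 4.97, also below the median of the named genes on every array. The part of other cell types in the falls of the 7 genes was not tested.

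The genes whose profile lay closest to each of the 7 were found by the root mean square difference of the mean-centred log2 values over the 12 arrays. For the 5 genes that fell, 963 other genes that fell were searched, and for Klf3 and Klf4 18705 genes. Closest to Nr5a2 were Urah (0.102) and Pcolce2 (0.139), and closest to Nr0b1 were Zscan10 (0.112), a zinc finger factor of ES cells, and Adam19 (0.163). Esrrb lay closest to Zswim1 (0.0950) and Mybl2 (0.134), a cell cycle regulator, and Klf2 to Smagp (0.0763) and N4bp3 (0.132).

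Klf5 lay closest to Sfxn1 (0.0910) and Bcl3 (0.0930), Klf4 to Hscb (0.0837) and Ftdc1 (0.1001), and Klf3 to Ndufa6 (0.0683) and Hdhd2 (0.0708). Among the 7 genes themselves, the closest pair was Klf4 with Klf5 at 0.152, followed by Nr5a2 with Nr0b1 at 0.188. For every one of the 7, both named genes lay closer than any other gene of the 7. They were picked as the closest of 963 or 18705 genes, so this order was largely set by the search. Ftdc1 had a mean of 2.82, below the array medians.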

How the data were processed

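RNA of the 12 samples had been extracted with Trizol and 100 ng per sample labelled for Affymetrix whole-transcript arrays, per the labels' protocols. Each deposited value is the log2 signal of a transcript cluster on 1 array, as the range from 0.567 to 13.8 shows. The submitters' processing notes name RMA, limma and R 3.1.1 without a role or order. Such normalized values do not show a change in the total RNA of a cell. The genome build of the processing is not given in the sources used here.

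Gene names come from the platform annotation, brought up to date by gene ID from RefSeq. The array holds 41345 clusters: 23521 had 1 gene, 1814 several and 16010 none named, and a gene with several clusters was represented by the brightest. Group differences come from limma 3.58.1 (R 4.3.3), in 1 fit of 4 group means over all 12 arrays and 22180 genes, with Benjamini-Hochberg adjustment and a threshold of 0.05. The fit was checked on simulated data with noise independent between genes and arrays. That check therefore does not cover the axis within groups. Errors are standard errors unless named. Permutation tests used Python 3.11.15.

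The 7 genes and all lists were chosen with earlier results of these data known. The named genes were the 7, up to 3 genes per list with the smallest p for RA on average and up to 2 with a known link, and the 2 nearest profiles per gene, leaving out predicted symbols and small RNAs. The alternatives were replicate blocks, another variance model, a filter on dim genes, other scalings, the mean of a gene's clusters, all clusters, only the groups compared, array weights, the axis within groups as a covariate, and leaving out arrays.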

Additional observations from a re-analysis of the deposited data

How the results depend on the processing

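The falls of Nr5a2 and Nr0b1 kept their direction and call in each construct under all 25 alternatives run, and those of Esrrb and Klf2 on average under all 24. Leaving out the 4 arrays high on the within-group axis was chosen after seeing the data. It keeps shCT day 0 replicate 1, the array furthest out on that axis. Numbers of called genes depended on the setting. For RA in shCT, 943 genes became 599 with only the groups compared, 5224 with array weights and 2474 with the axis as a covariate, and 483 to 1049 on leaving out single arrays. For RA in shLOXL2, 768 became 2663 with array weights and 2212 with the axis, and 444 to 916 without single arrays. For RA on average, 2289 became 5975 and 4584, and 1684 to 2605 without single arrays. Centring arrays on their medians moved the share of higher among called genes on average from 53.5% to 32.9%, in shCT from 50.9% to 27.9% and in shLOXL2 from 59.2% to 47.1%, and moved the median change of all genes in shCT to -0.10; 5 of the 7 genes still fell, with a median of -0.73. Knockdown in single RA states, with 0 calls in limma (1037 genes without RA and 1100 with RA at an unadjusted p under 0.05), gave 2875 and 9 with array weights and 22 and 9 with the axis. Knockdown on average, with 12 calls, gave 22 with a variance trend, 27 without dim genes, 1 over all clusters, 1002 with array weights, 136 with the axis, 37 without the 4 arrays and 0 to 19 without single arrays. Reversed signs concerned values not called: the RA change of Klf3 in shCT (-0.077 centred, -0.014 with weights, -0.036 to 0.068 without single arrays), the interaction of Esrrb (0.0019 centred, -0.24 to 0.11 without single arrays) and of Klf4 (-0.012 without the 4 arrays, -0.010 to 0.26 without single arrays), knockdown for Klf4 (0.025 without the 4 arrays) and Klf2 (-0.15 to 0.0016), and the RA changes of Ncoa3 (0.024 after quantile normalization, -0.062 to 0.012) and Nanog (-0.019 to 0.17). The cause was not tested. Of the 21 pairs, 14 to 18 were called without single arrays and 0 without the 4 arrays, where 36 relabellings cannot give a p below 0.0556 (of the pairs lost there, Nr0b1 with Klf2 alone was above this, at 0.167); for the same reason 0 of the 7 exact knockdown tests passed there against 1.

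The replicate numbers were not shown to pair the arrays: same-numbered arrays within constructs correlated at 0.0394 to 0.631 in their deviations, with 5 of 6 pairs over 0.1, and 9 of 12 arrays correlated best with their own number, a hint from the data only. With the replicate number as a block, knockdown on average gave 1 gene, and Ppargc1b and Crebbp were no longer called for RA on average (adjusted p = 0.0512 and 0.0692). With a random block of construct and number the counts were 2047 in shCT, 1675 in shLOXL2, 3871 on average and 0 for knockdown on average, and with a fixed block 1800, 1624 and 3677 for RA. Under both of these blocks Esrrb passed in each construct, Klf5 in shCT and Klf2 in shLOXL2, so that Nr5a2, Nr0b1, Esrrb and Klf2 passed in each construct. The same held without blocks when arrays were centred on their medians, with array weights and with the axis as a covariate. With sign flips of same-numbered differences, the pairs Nr0b1 with Klf2, Esrrb with Klf4, Klf2 with Klf4 and Klf2 with Klf5 were lost (adjusted exact p = 0.0729).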
